A study of Drosophila melanogaster with 2 samples.

Results

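The genes of chitin synthesis, chitin modification and chitin binding were followed in wing disc RNA with and without forced expression of Taiman (Tai), a coactivator of the ecdysone receptor. The set was a list of 35 gene symbols covering chitin synthases, their supply and partner genes, chitin deacetylases, the obstructor family, chitinases and imaginal disc growth factors. It was chosen by name, not by measured values. Its division into classes was made with earlier results of these data known, so counts and medians by class are descriptions only. Of the 35, 34 had a row under that symbol in a table of 13989 genes. Idgf6 had none, and RefSeq gives Chit, a symbol that the table does hold, as an older name of it.

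Chitin is a polymer of N-acetylglucosamine that epithelia secrete at their apical surface as the core of the insect cuticle. A membrane-bound synthase makes the chain from UDP-N-acetylglucosamine, and deacetylases and chitin-binding proteins then modify and order the fibres. Chitinases cut chitin at each molt, when the old cuticle is loosened and a new one is laid down, and pulses of the steroid ecdysone time this cycle.

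Wing discs, from which the adult wing blade, hinge and notum grow, came from wandering third-instar Drosophila melanogaster. The control (GFP) carried a green fluorescent protein transgene under engrailed (en>GFP), whose driver is active in posterior disc cells. The other genotype (GFP_Tai) carried a Tai transgene in addition (en>GFP,Tai), so both genotypes shared the driver and GFP. Larvae were picked for their GFP, and 80 to 100 discs per genotype were pooled at RNA extraction, so each value mixes posterior with anterior cells. In such bulk samples, more cells that express a gene and more RNA per cell cannot be told apart. The files gave 1 value per gene and genotype, in FPKM (fragments scaled by transcript length and by the size of the library). No separate replicates were analysed here, although the series design mentions triplicates, so no difference below was tested between genotypes.

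The depth, estimated from the low values, was 7860000 fragments for GFP and 10270021 for GFP_Tai. Fragments per gene were estimated from this depth and the shortest annotated transcript, and they gave each ratio a 95% counting interval (exact binomial, on each library's share of a gene's fragments). These intervals cover counting error only and carry no spread between discs or libraries. The tai gene had 27.1 FPKM in GFP and 879 in GFP_Tai, as the labels require. All 8 listed wing disc markers were present and within 2-fold, among them the wing genes vg with 44.0 and 42.9 FPKM and nub with 74.8 and 63.0. The most abundant was sd with 112 and 108 FPKM, and rn had the largest difference, with 34.8 and 25.6.

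Of the chitin genes above a minimum level, 10 were at least 2-fold higher in the GFP_Tai library and 0 were 2-fold lower. A gene was kept when it had at least 1 FPKM in either genotype, and differences were taken as log2((GFP_Tai FPKM + 1) / (GFP FPKM + 1)). Calls such as at least 2-fold higher or within 2-fold refer to that scale, while printed ratios are plain FPKM ratios. Of the 34 genes, 21 were kept. The 10 higher genes were obst-E, Cda5, Gasp, Idgf3, Cht5, serp, obst-A, verm, mmy and Cht6. The same rule was met by 6.31% of all 8275 genes kept, and the lower side by 1.81% against 0 of the 21. The median log2 difference was 0.61 over the 21 genes and -0.02 over all genes kept. Idgf3 and obst-E were kept only through their GFP_Tai value, so they had to lie on the higher side. The FPKM of the 34 genes summed to 1658 in GFP and 3086 in GFP_Tai, against 806070 and 771735 over all 13989 genes. The genes with the largest gains in FPKM were verm, Gasp, obst-A and serp, so the sums mostly follow a few abundant genes.

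**Figure D1:**
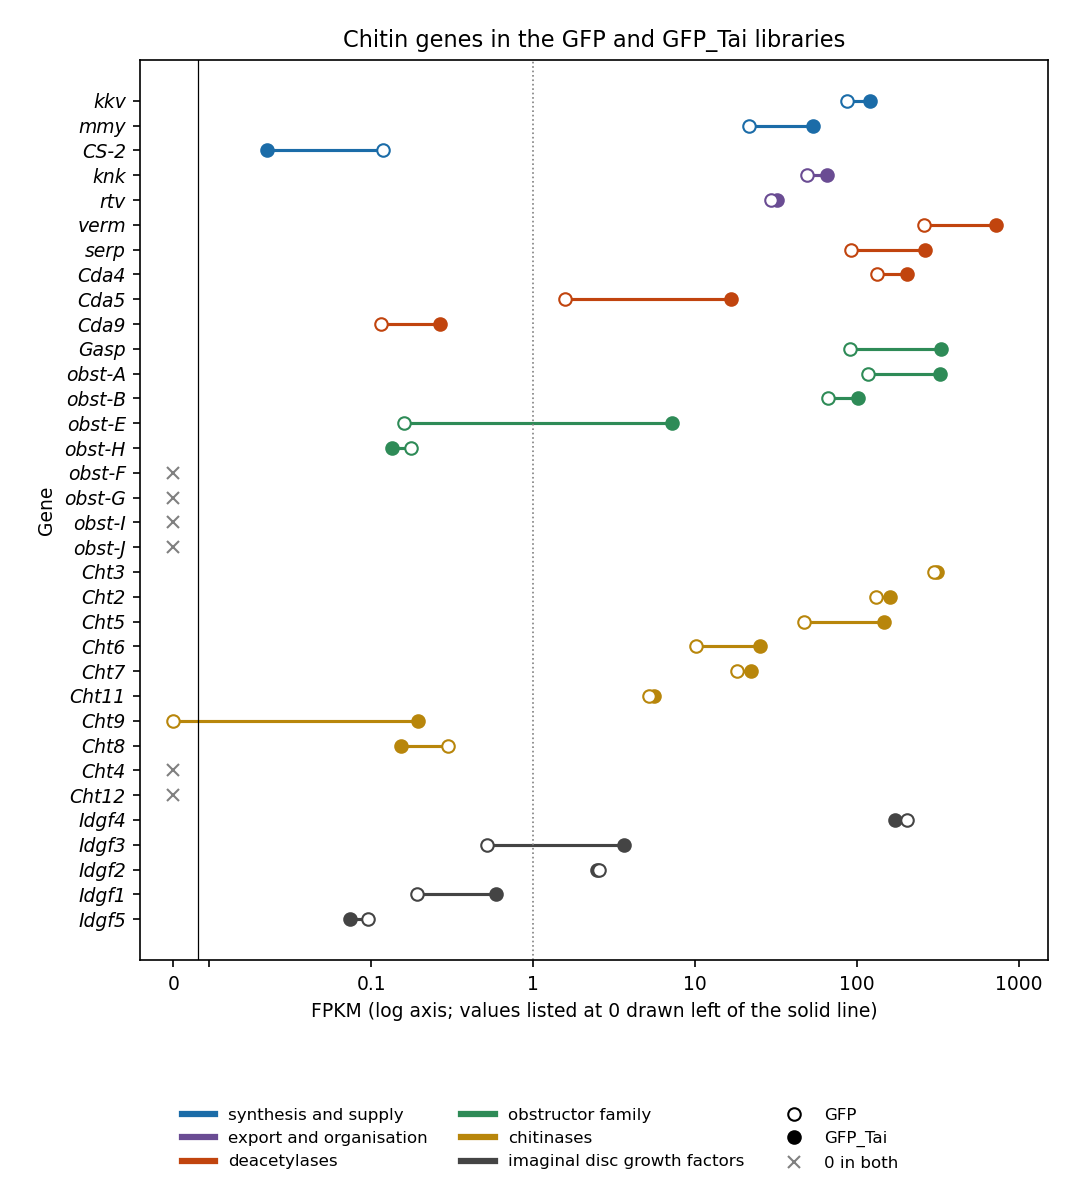
FPKM on a log axis for each of the 34 genes, open circles for GFP and filled circles for GFP_Tai, coloured by class, with crosses for the 6 genes listed at 0 in both and a dotted line at 1 FPKM. The filled circle lies to the right of the open one for verm, serp, Gasp, obst-A and Cht5, while those of Cht3, rtv and Idgf2 nearly coincide.

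Of the genes that make the chain and its precursor, mmy was at least 2-fold higher, kkv was within 2-fold and CS-2 was under the minimum. The epidermal chitin synthase gene kkv (FBgn0001311, 3R:5378093-5392866 in BDGP6, minus strand) had 86.9 FPKM in GFP and 120 in GFP_Tai. Its ratio was 1.38 (counting interval 1.33 to 1.44). The kkv span also holds CG14668 on the same strand, at 1.77 and 1.13 FPKM. The gene mmy encodes the enzyme that makes UDP-N-acetylglucosamine, the substrate of the synthase. It (FBgn0259749, 2L:6468538-6473904, minus strand) had 21.5 FPKM in GFP and 53.5 in GFP_Tai, 2.49-fold apart (counting interval 2.18 to 2.85). The second synthase gene, CS-2 (Chs2 in RefSeq), which serves the lining of the gut, stayed under the minimum. It had 0.119 and 0.0227 FPKM, on roughly 4 fragments against 1.

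Genes for the export and ordering of the fibres lay within 2-fold. The gene knk encodes a membrane-linked protein that organises new chitin and, in the beetle Tribolium, shields it from chitinases. It had 48.9 FPKM in GFP and 65.3 in GFP_Tai, 1.34-fold apart (counting interval 1.23 to 1.45). The gene rtv, whose product places knk protein at the surface in Tribolium, had 29.6 and 32.0 FPKM, and its counting interval of 0.89 to 1.32 included equal values. Both overlap an opposite-strand gene, knk over 1991 bp and rtv over 109 bp. The library kit named in the labels keeps no strand information, so fragments in those stretches cannot be assigned to either gene.

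Chitin deacetylases, which remove acetyl groups from the polymer, have 5 genes in the list. Of these, 4 were kept and 3 passed the 2-fold threshold upward, namely verm, serp and Cda5, against 6.31% of all genes kept. The median log2 difference of the 4 was 1.49. The FPKM of the 5 genes summed to 484 in GFP and 1201 in GFP_Tai. The secreted enzymes of serp and verm are known for limiting the length of tracheal tubes. The gene verm (FBgn0261341, 3L:19690033-19695260, minus strand) had 259 FPKM in GFP and 720 in GFP_Tai, the highest value of the 34 genes in that library. Its ratio was 2.78 (counting interval 2.69 to 2.88), and its place by level among the genes kept moved from 386 to 143. Its neighbour serp (FBgn0260653, 3L:19700977-19708015, minus strand) had 91.1 and 262 FPKM, 2.88-fold apart (counting interval 2.71 to 3.05). The intervals of the neighbours overlap, so their ratios were alike within counting error, while their levels differed in both libraries.

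Cda5 had the widest relative gap of the deacetylases, from a low start. This gene (FBgn0051973, 2L:25402-65404, minus strand, 8 annotated transcripts) had 1.56 FPKM in GFP and 16.6 in GFP_Tai. The ratio was 10.6 (counting interval 7.84 to 14.6) on an estimated 46 and 633 fragments. Cda4 had 132 FPKM in GFP and 202 in GFP_Tai, and its ratio of 1.53 (counting interval 1.44 to 1.62) put it under the 2-fold threshold. Cda9 was near the floor in both libraries, at 0.115 and 0.264 FPKM, on an estimated 1 and 3 fragments.

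The obstructor family encodes secreted proteins with chitin-binding domains, and it split into genes with clear levels and genes near 0. Of its 9 genes, 4 were kept, and 3 of them passed the 2-fold threshold upward, against 6.31% of all genes kept. The median log2 difference of the 4 was 1.66. Among the 3, obst-E was kept only through its GFP_Tai value, which fixed its direction. Gasp, whose product binds chitin in the tracheal lumen, had 90.9 FPKM in GFP and 328 in GFP_Tai (FBgn0026077, 3R:6088799-6100887, minus strand). Its ratio was 3.61 (counting interval 3.36 to 3.88). The gene obst-A, which encodes a scaffold protein of the larval cuticle, had 117 and 326 FPKM (FBgn0031097, X:20239855-20243209, plus strand). Its ratio was 2.80 (counting interval 2.60 to 3.01). In GFP_Tai these genes reached nearly the same level, although obst-A was above Gasp in GFP.

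The other obstructor genes differed less or rested on few fragments. The gene obst-B had 66.3 FPKM in GFP and 102 in GFP_Tai, 1.53-fold apart (counting interval 1.37 to 1.71). The gene obst-E had 0.158 FPKM in GFP and 7.24 in GFP_Tai. This ratio of 45.8 rested on roughly 1 fragment against 59, and its counting interval ran from 7.87 to 1880. The remaining 5 genes were under the minimum in both libraries, with obst-F, obst-G, obst-I and obst-J listed at 0. The gene obst-H had 0.176 and 0.134 FPKM, the ratio of 0.765 that equal numbers of fragments give, here an estimated 1 in each library.

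Chitinases, which cleave chitin, were split between 2 genes at least 2-fold higher and 4 that stayed within 2-fold. Of the 10 genes 6 were kept, and 2 of these passed the 2-fold threshold upward, against 6.31% of all genes kept. The median log2 difference of the 6 was 0.29. Cht5, whose Tribolium counterpart is needed for molting, had 47.3 FPKM in GFP and 146 in GFP_Tai (FBgn0038180, 3R:13767549-13770732, plus strand). Its ratio was 3.09 (counting interval 2.85 to 3.36). Cht6 had 10.1 and 25.2 FPKM (FBgn0263132, X:10016845-10050803, plus strand), 2.49-fold apart (counting interval 2.21 to 2.82). An annotated antisense RNA covers 3248 bp of Cht6, and its share of the fragments was not known.

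The most abundant chitinase gene was nearly level between the libraries. It was Cht3, which RefSeq now names Cht10, with 296 FPKM in GFP and 313 in GFP_Tai and a ratio of 1.06 (counting interval 1.04 to 1.08). Cht2 had 130 and 160 FPKM, 1.22-fold apart (counting interval 1.15 to 1.31). Cht7, whose Tribolium counterpart helps to order newly made chitin, had 18.02 and 22.2 FPKM, 1.23-fold apart (counting interval 1.10 to 1.38). Cht11 had 5.18 and 5.59 FPKM, and its counting interval of 0.76 to 1.55 included equal values. In GFP the level of Cht5 was well below that of Cht2, and in GFP_Tai these levels were close, 146 and 160 FPKM.

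Cht8, Cht12, Cht4 and Cht9 lie side by side on 2R, with gaps of at most 904 bp, and all were under the minimum. Cht4 and Cht12 were listed at 0 in both libraries. Cht9 was listed at 0 in GFP and had 0.194 FPKM in GFP_Tai. Cht8 had 0.299 and 0.153 FPKM, the ratio that 3 fragments in GFP and 2 in GFP_Tai would give. At this depth no difference was detectable in the cluster.

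Imaginal disc growth factors are secreted relatives of chitinases that lack the cutting activity and were named for their effect on cultured disc cells. Of the 5 genes found 3 were kept, Idgf2, Idgf3 and Idgf4, and their median log2 difference was -0.02. Of the 3, only Idgf3 was at least 2-fold higher, against 6.31% of all genes kept. It was kept only through its GFP_Tai value, which fixed its direction. Idgf4 held most of the class's FPKM, with 202 in GFP and 171 in GFP_Tai (FBgn0026415, X:9927973-9930948, minus strand). Its ratio was 0.85 (counting interval 0.80 to 0.90), and it was the only kept gene of the list whose whole interval lay below 1. Idgf2 had 2.54 and 2.49 FPKM, and its counting interval of 0.55 to 1.76 included equal values. Idgf3 had 0.519 FPKM in GFP and 3.64 in GFP_Tai, 7.01-fold apart (counting interval 3.01 to 20.1) on an estimated 6 and 54 fragments.

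The remaining growth factor genes, Idgf1 and Idgf5, were under the minimum. Idgf1 had 0.192 and 0.588 FPKM, on an estimated 2 and 8 fragments, and its counting interval of 0.58 to 32.7 included equal values. Idgf5 had 0.0961 and 0.0735 FPKM, again the ratio of 0.765 at equal fragments. Idgf1, Idgf2 and Idgf3 follow each other on 2L with gaps of 536 and 398 bp. Idgf1 and Idgf2 share a locus in the deposited table, and both overlap CG5888 on the other strand, which had 11.0 and 10.5 FPKM. Their values are therefore uncertain. Chit, the older symbol of Idgf6, had 19.4 FPKM in GFP and 18.02 in GFP_Tai, at a ratio of 0.93 (counting interval 0.77 to 1.12).

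Across the 21 genes kept, the plot of ratios shows 10 genes on the far side of 2-fold and a gap below them. Just inside the threshold lay Cht6 with a log2 difference of 1.24 and mmy with 1.28. Just outside lay obst-B and Cda4, both with 0.61, and no gene lay between 0.61 and 1.24. The counting interval was wholly above 1 for 17 genes, included 1 for 3, namely rtv, Cht11 and Idgf2, and was wholly below 1 for Idgf4. Of all 7880 genes kept that had such an interval, 19.8% lay wholly above 1 and 23.9% wholly below.

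**Figure D2:**
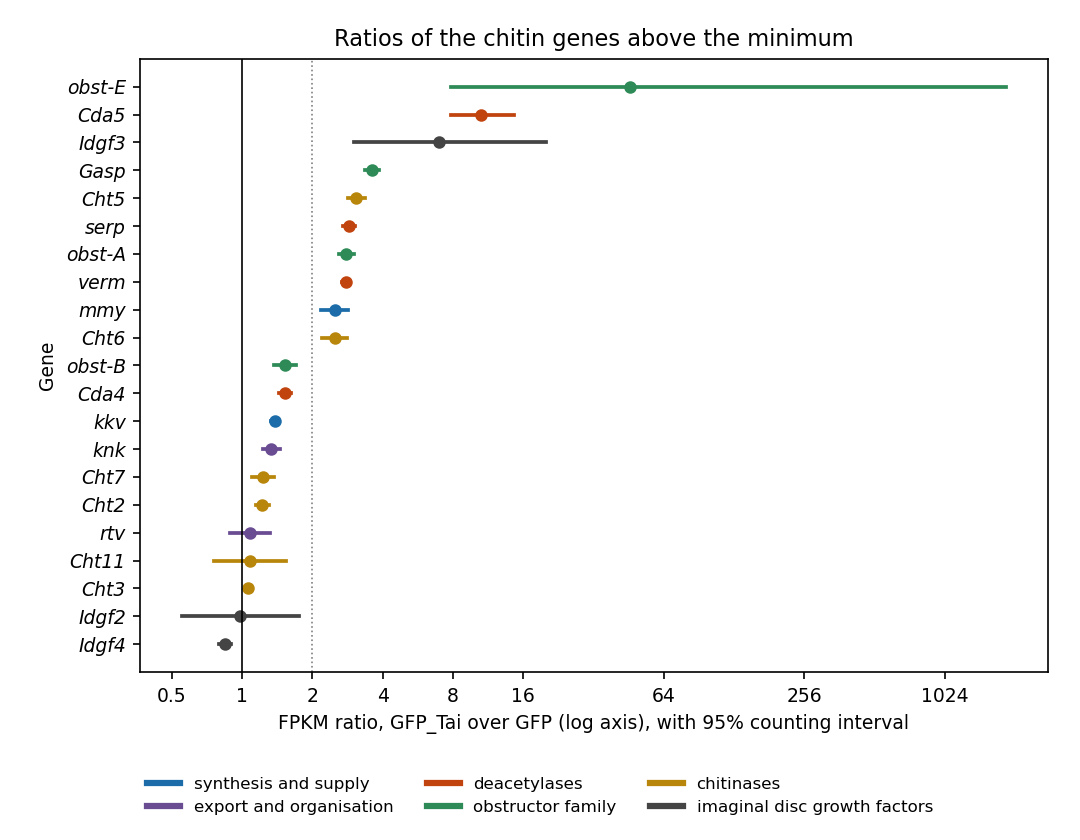
Plain FPKM ratio of GFP_Tai over GFP on a log axis for the 21 genes kept, with points for the ratio and bars for the 95% counting interval, coloured by class, a solid line at 1 and a dotted line at 2. The bars of obst-E and Idgf3 are the widest, from 7.87 to 1880 and from 3.01 to 20.1, and the bar of Idgf4 lies left of 1.

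The authors' deposited table tested 21 of these genes, the same 21 that were kept here, and called 0 of them, against 0.131% of all genes it tested. In the authors' deposited table, 2 of the 21 had a p under 0.05, Gasp with p = 0.03275 and Cda5 with p = 0.0435, against 0.466% of all 8374 genes tested. Both had q = 0.999524 in the authors' deposited table. The next lowest p values of that deposited table were 0.0567 for obst-A, 0.0669 for serp, 0.07555 for verm and 0.0762 for Cht5. The gene with the highest ratio, obst-E, had p = 0.307 in the authors' deposited table.

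Most chitin genes kept were well expressed, where 2-fold differences were less common among all genes. With a mean of at least 10 FPKM over the libraries, a limit chosen after the data were seen, 7 of 16 genes were higher and 0 lower. Among all 6258 genes at that level 3.31% were higher and 1.53% lower. The 7 were mmy, serp, verm, Gasp, obst-A, Cht5 and Cht6. The number of the 34 genes above 100 FPKM was 6 in GFP and 11 in GFP_Tai. Among those that crossed this line were kkv and obst-B, which were within 2-fold. For all genes kept, a level near 100 FPKM was a similar place in both libraries. It was place 1116 in GFP (ap, 99.3 FPKM) and place 1058 in GFP_Tai (obst-B, 102 FPKM).

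**Figure D3:**
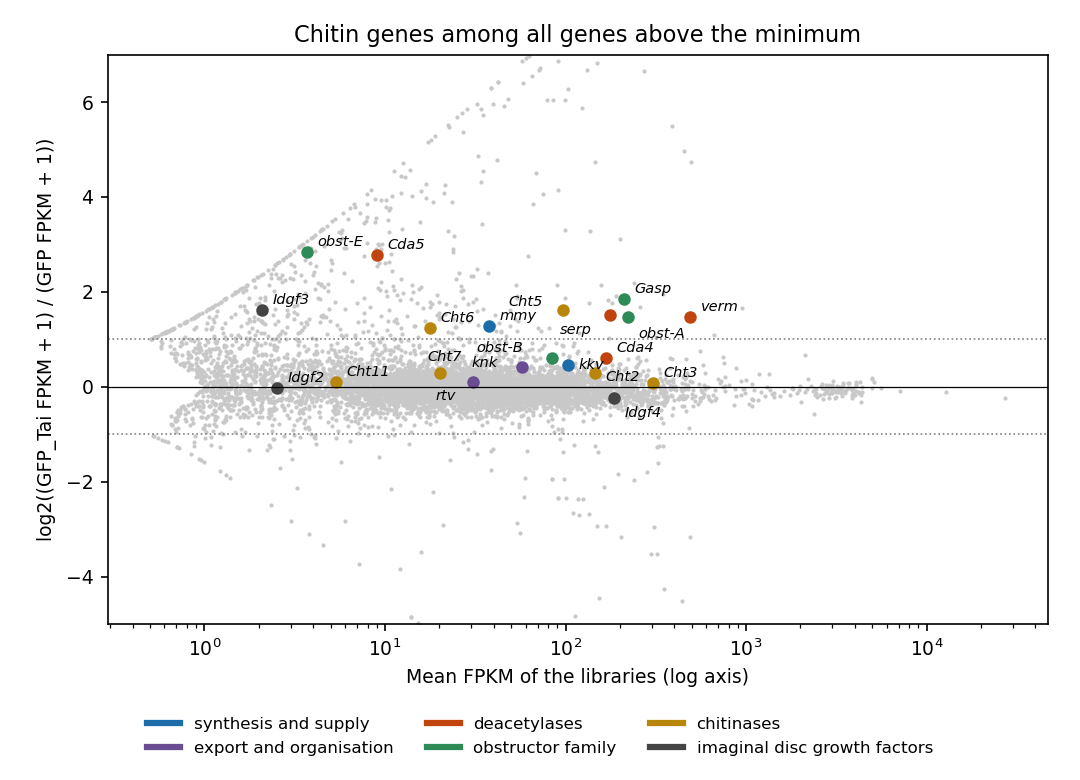
Log2 difference, log2((GFP_Tai FPKM + 1) / (GFP FPKM + 1)), against mean FPKM on a log axis, with all 8275 genes kept in grey and the 21 chitin genes coloured by class and named. Dotted lines mark 2-fold, and 50 grey genes lie outside the plotted range from -5 to 7. Gasp, serp, obst-A, verm and Cht5 lie above the dense grey band at levels where few grey points do.

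The position of the genes was also compared, since neighbouring genes can differ together. The members were spread over 5 chromosome arms, with 10 on 3L, 8 on 2L, 6 each on 2R and X, and 4 on 3R. The only pair of neighbours that were both at least 2-fold higher was verm and serp, 5716 bp apart. Beside the 10 higher genes lay 10 other flanking protein-coding genes above the minimum, of which 1 was at least 2-fold higher and 0 lower. That gene was Peritrophin-A, 1437 bp from obst-A and itself a chitin-binding protein gene. Beside the other 11 genes kept lay 12 such flanking genes, of which 0 were higher and 0 lower. Among all genes kept, 6.31% were higher and 1.81% lower, and so few flanking genes cannot show a departure from those shares. The genes beside mmy, for example, were within 2-fold, with CG9531 at 6.60 and 9.86 FPKM and CG9536 at 24.5 and 23.8.

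Other genes of chitin and its precursor were taken from a list of related genes. That list was chosen with earlier results of these data known, so its counts are descriptions only. Of 36 related genes found 18 were kept, of which 6 passed the 2-fold threshold upward and 0 downward, against 6.31% and 1.81% of all genes kept. The median log2 difference was 0.44. Of the 18, 3 were kept only through their GFP_Tai value, among them reb and dyl of the 6, so their direction was fixed. Both partners of the chitin synthase were among the 6. The gene exp, listed as CG13188, had 1.94 FPKM in GFP and 16.2 in GFP_Tai, 8.32-fold apart (counting interval 6.02 to 11.8). Its relative reb, listed as CG13183, had 0.371 and 3.64 FPKM, 9.82-fold apart (counting interval 4.28 to 28.0). Either protein is needed with the synthase for chitin to be laid down in the embryo.

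Chitin-binding and surface matrix genes made up the rest of the 6. The mucin-related gene Mur89F had 1.48 FPKM in GFP and 17.6 in GFP_Tai, 11.9-fold apart (counting interval 9.49 to 14.98). Peritrophin-A had 1.69 and 5.45 FPKM, 3.23-fold apart (counting interval 1.77 to 6.28). The gene slf, listed as CG3244, encodes a lectin of the cuticle and had 7.63 and 143 FPKM, 18.8-fold apart (counting interval 14.6 to 24.4). The gene dyl, which encodes a zona pellucida domain protein of the apical surface, had 0.0496 and 64.2 FPKM, from an estimated 1 fragment in GFP. By contrast pio, another gene of that kind, had 259 and 240 FPKM. Of the 19 chitin-binding genes in the list, 17 were under the minimum and 10 of these were listed at 0 in both libraries, most of them mucin-related genes.

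Genes of precursor supply other than mmy did not reach 2-fold. All 7 hexosamine supply genes kept were within 2-fold. They all had the higher value in GFP_Tai, as had 3819 of all 8275 genes kept. Their median log2 difference was 0.23. Gfat1, which encodes the enzyme of the committed step, had 209 FPKM in GFP and 292 in GFP_Tai, 1.398-fold apart (counting interval 1.34 to 1.46). Gnpnat, listed as CG1969, had 107 and 142 FPKM, and nst, listed as CG10627, had 51.2 and 55.0. These encode the steps between Gfat1 and mmy. The counting intervals of nst (0.98 to 1.18) and of Treh, also on the supply list (0.99 to 1.27), included equal values. Hexosaminidase genes, whose enzymes trim chitin fragments, stayed within 2-fold on the log2(FPKM + 1) scale. Hexo1 had 137 and 150 FPKM. Hexo2 had 2.62 and 5.68 FPKM, a plain ratio of 2.17 (counting interval 1.498 to 3.187).

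**Figure D4:**
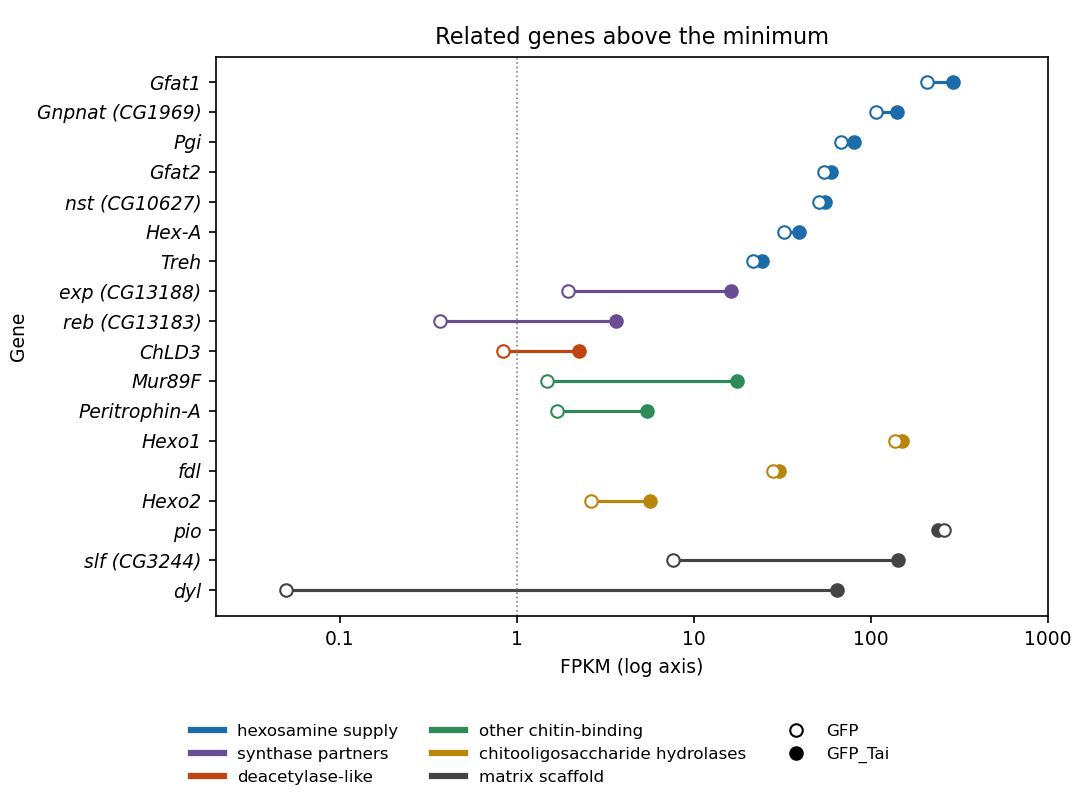
FPKM on a log axis for the 18 related genes kept, open circles for GFP and filled circles for GFP_Tai, coloured by part of the pathway, with a dotted line at 1 FPKM. The circles lie far apart for exp, reb, Mur89F, Peritrophin-A, slf and dyl and close together for the hexosamine supply genes.

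Several of the higher genes are also known from trachea, which is attached to the disc, so markers of other tissues were read beside them. The 7 genes found of the trachea list were all within 2-fold and summed to 422 FPKM in GFP and 439 in GFP_Tai. Most of these sums came from pio, with 259 and 240 FPKM, and vvl, with 83.3 and 102. Whether the 7 genes mark trachea alone in these samples was not tested. Nor was it tested whether the sums follow the amount of trachea. The defining regulators trh and btl had 21.3 and 3.47 FPKM in GFP and 20.2 and 3.45 in GFP_Tai. The most abundant listed gene, pio, is also on the related list, and Mmp1 had the largest difference, 33.9 and 50.1 FPKM. The part of trachea in the values of serp, verm and Gasp was not tested. The 6 myoblast markers summed to 98.1 and 89.5 FPKM, with 0 at least 2-fold different. Their largest difference was that of Mef2, with 19.8 and 16.5 FPKM.

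Blood cell and fat body markers had low sums, and 1 gene of each list passed the 2-fold threshold upward, against 6.31% of all genes kept. All 7 haemocyte markers and 6 of the 7 fat body markers had the higher value in GFP_Tai, as did 3819 of all 8275 genes kept. Of these markers, 4 for haemocytes and 1 for fat body were kept only through their GFP_Tai value, which fixed their direction. The 7 haemocyte markers summed to 29.1 FPKM in GFP and 40.5 in GFP_Tai. Of them, only nimC1 was at least 2-fold higher, at 0.539 and 3.66 FPKM, and it was kept only through its GFP_Tai value. The most abundant of them, crq, had 20.7 and 24.2 FPKM. The 7 fat body markers summed to 23.2 and 35.1 FPKM, with Lsp1beta, the one at least 2-fold higher, at 1.24 and 5.01. The most abundant, Lsp2, had 9.25 and 12.2 FPKM, while Rfabg had the lower value in GFP_Tai, 1.48 and 1.09. The part of such cells in the chitin gene values, Idgf3 included, was not tested.

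Gut and salivary gland markers were near 0 in GFP. The gut list summed to 0.0765 FPKM in GFP and 208 in GFP_Tai, nearly all from Jon65Aiv with 121 and Jon65Aiii with 85.03 in GFP_Tai, both listed at 0 in GFP. Of the 7 gut genes 3 were kept, all at least 2-fold higher and all only through their GFP_Tai value, so their direction was fixed. Besides the Jon65A genes this was alphaTry, listed at 0 in GFP and with 2.03 FPKM in GFP_Tai. The genes betaTry and Amy-p were listed at 0 in both libraries. The 6 salivary genes summed to 0.786 and 12.3 FPKM, and 3 were at least 2-fold higher, all kept only through their GFP_Tai value, so their direction was fixed. Of these Sgs7 was the most abundant, at 6.93 in GFP_Tai and listed at 0 in GFP. The part of these tissues in the chitin gene values was not tested.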

How the data were processed

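RNA was sequenced from pooled wing discs, with a library of 4 µg of total RNA per genotype after removal of ribosomal RNA, per the labels' protocols. Larvae grew at 25 °C. CASAVA 1.4, TopHat2 2.0.12, Cuffdiff 2.2.1 and build dm6 appear, without their roles, per the submitters' processing notes. The authors deposited 1 FPKM value per gene and genotype, and per the file headers a p-value and q-value per gene. How replicates were combined, and how fragments matching several genes were assigned, is not given in the sources used here.

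Samples were grouped by the genotype label. Gene classes, the related list and the marker lists were chosen with earlier results of these data known. Every gene of the list was named, as were tai and, of the other lists, those with the largest differences and the most abundant marker. Differences used a pseudocount of 1, which understates those of low genes, a minimum of 1 FPKM in either genotype and a 2-fold threshold. No test of the genotypes was made.

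The loci of the table were not those of dm6 (shifted by 4112496 bp on 2R, for example), so coordinates came from the BDGP6 annotation (Ensembl release 115) by symbol. Older symbols were matched through RefSeq. Related symbols matched 36 rows of 43 listed, and markers 48 of 49.

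Depth came from 304 genes with the same FPKM ratio of 0.765 (to 4 digits), read as equal fragments. With 195 nt taken off each transcript, 75.6% of 123 low single-transcript genes came out whole within 0.1. The length taken off and the depth were searched for the highest such share. Chance gives 20% for a setting fixed in advance, so the 75.6% is no test of the depth. Settings nearly as good gave 7720000 to 8380000 fragments for GFP. The fragments are estimates, used for counting intervals only. Calculations used Python 3.11.15, numpy 2.4.6, pandas 2.3.3 and scipy 1.17.1, and were tested on simulated data. Alternatives covered the pseudocount, minimum, threshold, centring, genes listed at 0 and synonyms. Protein and promoter sequences were not used here.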

Additional observations from a re-analysis of the deposited data

How the results depend on the processing

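No paired analysis was possible because each genotype had 1 value per gene, and no replicate could be left out. Of 262 alternative values for 36 list results, 231 stayed within the limits set (1.5 times for a count, the interval of a median over its genes) and 31 moved. Of 102 alternative values for single genes, 11 moved past a limit and 0 changed sign among the genes at least 2-fold higher. That 0 was fixed in advance and shows nothing about stability. A pseudocount cannot change a sign, and centring moved values by far less than the differences of those genes. The limit for single genes was the counting interval carried to the log2(FPKM + 1) scale with the GFP value held fixed. For Cht9, which has no interval, it was any change.

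The number of chitin genes at least 2-fold higher (10) was 5 at a 3-fold threshold (Cda5, Gasp, obst-E, Cht5 and Idgf3), 12 at 1.5-fold, 8 with a pseudocount of 5, where Cht6 and Idgf3 were no longer counted, and 9 at a minimum of 5 FPKM. It stayed at 10 in the other planned settings, matching by synonym included, and the number lower was 0 in each. In the settings where it stayed at 10 the counts could not change, given the values above. A pseudocount of 0.1 widens differences, but no other kept chitin gene had a plain ratio above 1.53. Centring used a median of -0.02, while no gene lay between 0.61 and 1.24. Matching by synonym added only Chit, at a ratio of 0.93. With no minimum, genes under 1 FPKM in both libraries cannot reach 2-fold on the log2(FPKM + 1) scale. Leaving out genes listed at 0 removed no kept chitin gene. With no minimum the median log2 difference was 0.27 for the chitin genes, 0.00 for the obstructor family and 0.13 for the related genes, since genes near 0 then count.

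Among all genes, the number higher (522) was 284 with a pseudocount of 5, 813 at 1.5-fold, 324 at 3-fold and 207 at a mean of 10 FPKM (added after the data were seen). The number lower (150) was 97, 325, 87 and 96 in the same settings, and 96 without genes listed at 0. The median of all genes was 0.00 with no minimum or when centred, -0.034 at a minimum of 5 and -0.045 at a mean of 10 FPKM.

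Values of some marker lists also moved. The gut median was 9.73 with a pseudocount of 0.1 and 0.094 with no minimum. The salivary gland median was 4.75 with a pseudocount of 0.1, 0.60 with a pseudocount of 5 and 0.69 with no minimum, and its number higher was 1 with a pseudocount of 5, at a minimum of 5 and without genes listed at 0. The haemocyte median was 0.19 with a pseudocount of 5, and its number higher was 2 with a pseudocount of 0.1 and 0 with a pseudocount of 5 or a minimum of 5. The number of fat body markers higher was 0 with a pseudocount of 5 or at 3-fold. The cause of these shifts was not tested.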

Other observations

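The gene obst-I and its neighbour CG32302 lie 234 bp apart on 3L and differed in these libraries, a pair found by position and chosen after its values were seen. The gene obst-I was listed at 0 in both libraries, while CG32302 was listed at 0 in GFP and had 9.50 FPKM in GFP_Tai. CG13806, on the other side at 217 bp, was listed at 0 and had 0.687 FPKM.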
